A study of Mus musculus with 24 samples.

Results

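The 39 genes described here are the amino acid response genes of the transcription factor ATF4, followed in mouse pancreatic stellate cells (PSC) grown with or without pancreatic cancer cells. They were chosen by function, as ATF4 itself, its partner factors and targets in amino acid and serine synthesis, amino acid transport and stress, and they were listed by name with earlier results of these data known. All 39 were found among the 53801 genes listed, and all 39 passed the filter on low values described below in each comparison. Because the list was drawn up with results in view, the counts over its members are a description, and what is reported for single genes comes from a test over all genes.

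PSC store lipid droplets at rest and become myofibroblast-like when activated. They came from pooled pancreata of young adult wild-type C57BL/6J mice and were used at early passage. The cancer cells (KPC) were a line from a single mouse carrying p48-Cre, which is active in pancreatic progenitors, so 1 line stands for all tumour cells. In standard co-culture the PSC grew on a membrane with 1 µm pores in an insert and the KPC cells at the bottom of the well, whereas in inverse co-culture both cell types grew on opposite sides of the same membrane. Mono-cultured PSC of each model were the controls, and all groups received Advanced DMEM/F-12 with 10% FBS. Standard PSC were seeded in another medium and given this one when the time count began, while inverse PSC were seeded in it 24 h earlier. From then on it was not replaced until the cells were taken at 24 h or 72 h, so inverse cultures had the older medium. Each of the 8 groups had 3 libraries. The cells of the inverse model were together for longer, and standard libraries were made from 450 ng of RNA but inverse libraries from 120 ng. The model, the time of coexistence, the age of the medium and the RNA input therefore cannot be told apart. Values are FPKM, fragments scaled to transcript length and to the mapped fragments of the library, which allow levels of different genes to be compared per length.

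The libraries held between 15932737 and 24798761 counted fragments and between 12277 and 13307 genes above an FPKM of 1. The 11 stellate and fibroblast markers summed to between 21450 and 39040 FPKM, but Gfap, a marker of quiescent stellate cells, was at 0 in 12 libraries and reached at most 0.237. The 9 epithelial markers, which would report KPC cells, summed to at most 11.1 FPKM except in replicate 2 of inverse co-culture at 24 h (45.9), and Epcam was at 0 in 21 libraries. The 6 adipocyte markers and the 6 macrophage markers varied more, as given beside the results.

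ATF4 is the effector of the integrated stress response. When amino acids run short, or when the endoplasmic reticulum, the mitochondria or haem supply are disturbed, a kinase phosphorylates the initiation factor eIF2α, general translation falls, and the Atf4 transcript is translated more. ATF4 then pairs with other bZIP factors on C/EBP-ATF response elements and turns on genes that make, import and charge amino acids, besides genes that restrain growth when the stress lasts. In fibroblasts the same genes are known for feeding glycine and proline into collagen. Since ATF4 is controlled mainly by translation, its transcript level does not report its protein.

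The letters of such an element were looked for in the promoters of the members, taken from RefSeq for build GRCm38.p6 as 250 bases before and 50 after the transcription start. TGATGNAA on either strand was found in 11 of the 33 members with a promoter entry (33.3%), against 4.51% of all 27025 genes and 3.97% of all 32851 promoters in that table. The 11 were Asns, Chac1, Got1, Jdp2, Nupr1, Pck2, Pycr1, Slc1a4, Slc7a11, Trib3 and Vldlr. A match of letters is no measured binding, and the list was made of known ATF4 targets, so this share describes the list. The windows around the element are shown for 4 members whose levels are given per library, because they span synthesis (Asns, Pycr1), transport (Slc7a11) and glutathione breakdown (Chac1). Each runs 5′ to 3′ on the strand of the gene, with the element in capitals, and TTNCATCA is the same element read on the other strand.
Asns, chr6:7693210-7693258, minus strand: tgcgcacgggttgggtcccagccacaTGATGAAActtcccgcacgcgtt
Pycr1, chr11:120643818-120643877, minus strand: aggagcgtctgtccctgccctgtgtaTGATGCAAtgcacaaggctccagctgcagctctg
Slc7a11, chr3:50443627-50443705, minus strand: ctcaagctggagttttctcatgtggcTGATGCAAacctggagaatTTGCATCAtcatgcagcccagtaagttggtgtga
Chac1, chr2:119351023-119351082, plus strand: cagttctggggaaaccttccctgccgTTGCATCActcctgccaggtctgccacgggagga
In Asns the element began 23 bases before the transcription start, in Pycr1 103 bases and in Chac1 193 bases before it. Slc7a11 was the only member with a pair of elements, 66 and 47 bases before its start and in opposite orientations.

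Levels of the members differed widely in these cells. Atf5, an ATF4-related factor that is also controlled by translation, had the highest mean over the 24 libraries at 476 FPKM, followed by the glutamine transporter Slc1a5 (272), the transporter heavy chain Slc3a2 (213) and Atf4 itself (168). The lowest were the cationic amino acid transporter Slc7a3 (1.20), the cystine transporter Slc7a11 (2.2) and cystathionine beta-synthase Cbs (2.21). The exons of Slc7a11 and Cbs are long (13922 and 7485 bases), so their low FPKM does not mean few fragments. The range between the lowest and highest library was narrow for Atf4 (127 to 252 FPKM) and wide for Psat1 (33.5 to 250.6) and Chac1 (2.23 to 32.7).

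Single libraries stood apart in the standard model and in inverse co-culture at 72 h. Replicate 3 of inverse co-culture at 72 h was the highest of its group for 36 of 39 members, at a median of 2.07-fold the other libraries. Over all expressed genes it was the highest for 39.6%, and the median log2 difference was 0.00. Trib3, a pseudokinase induced by lasting ATF4 activity, stood at 46.3, 36.7 and 159 FPKM in the replicates of that group. Replicate 1 stood apart in the standard model. At 24 h it was the highest for 27 members in both groups, against 35.4% of all expressed genes in control and 38.8% in co-culture. At 72 h it was the highest for 29 members in control (36.8% of genes) and, less clearly, for 22 in co-culture (39.7%). Phgdh, the entry enzyme of serine synthesis, measured 320, 72.1 and 96.7 FPKM in standard control at 24 h. In all 4 standard groups replicate 1 was instead the lowest for Slc1a5 and Ppp1r15a.

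**Figure D1:**
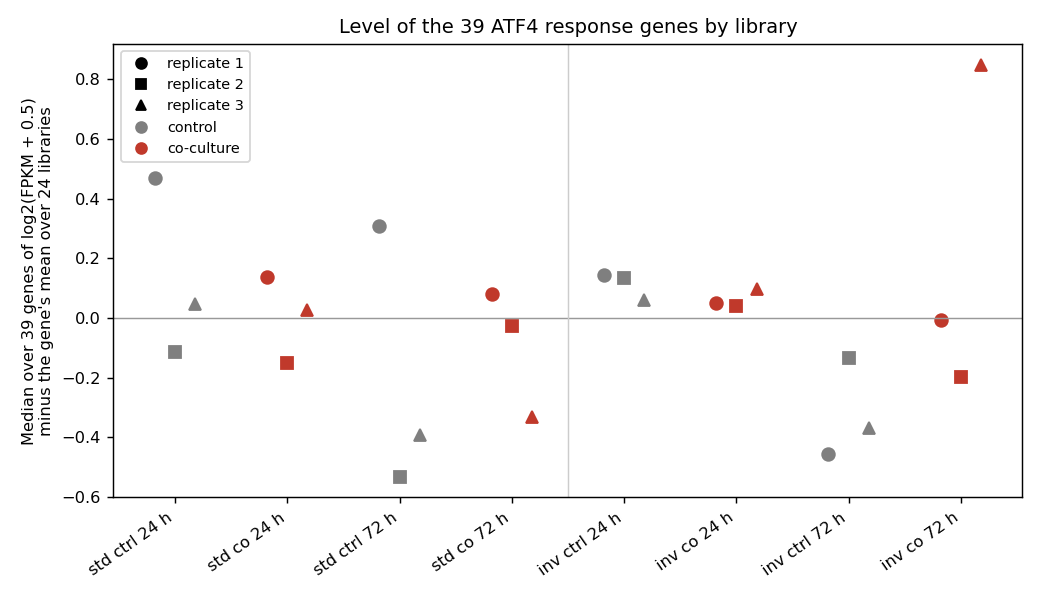
Level of the 39 genes in each library. The y axis is the median over the 39 genes of log2(FPKM + 0.5) minus the mean of each gene over 24 libraries, the x axis the 8 groups (std, standard; inv, inverse; ctrl, control; co, co-culture), and each symbol is 1 library. Inverse co-culture at 72 h replicate 3 lies highest at 0.85, and the lowest libraries are standard and inverse controls at 72 h.

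In inverse co-culture at 72 h, 4 of the 39 genes rose and 1 fell against inverse control. Genes were called at an adjusted p under 0.05 by limma on log2(FPKM + 0.5), and genes above an FPKM of 1 in at least 3 of the libraries fitted were tested. Ddit4, Mthfd1l, Pycr1 and Stc2 rose and Slc1a5 fell. Of the 13066 genes tested, 3.27% rose and 9.57% fell, 12.8% in all, so the member count lay above the background for rises and below it for falls. The median log2 change of the 39 was 0.52 with 32 above 0, against -0.16 over all genes. In 13 members every co-culture library lay above every control library, and in 1, Slc1a5, every co-culture library lay below, against a background of 9.53% and 28.8% of genes. Fewer cells of a type and less RNA per cell cannot be told apart in such bulk samples.

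Among the transcription factors none passed the test. Atf4 measured 161, 127 and 148 FPKM in control and 182.5, 172 and 252 FPKM in co-culture. The groups did not overlap, and the log2 change was 0.46 ± 0.16 (SE, n = 3 libraries per group) with an adjusted p of 0.103 by limma. Atf5 showed the same order, with a log2 change of 0.52 ± 0.15 and an adjusted p of 0.0566. Ddit3, which encodes the pro-apoptotic factor CHOP, measured 55.0, 50.1 and 42.7 FPKM in control and 48.3, 45.6 and 97.8 FPKM in co-culture, where only replicate 3 lay above the controls. Its exons share 10.9% of their bases with other genes, and strand was disregarded in counting, so its level is uncertain. The same limit holds for Aldh1l2 (14.1%), Psph (10.4%) and Jdp2 (7.7%). Atf5 shares 4.1%, and Shmt2 shares 1.0% with the gene Ndufa4l2 on the other strand. Cebpg and Jdp2, partners of ATF4 on its elements, had log2 changes of -0.11 and 0.01, and Nupr1, a small stress-induced chromatin protein, of 0.27.

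The enzymes of asparagine, serine and mitochondrial folate metabolism had the highest median of the functional groups, a log2 change of 1.02 with 8 of 8 above 0 and 1 called. Mthfd1l, which releases formate from mitochondria, was the called gene. It measured 4.33, 6.97 and 3.66 FPKM in control and 11.8, 7.91 and 13.5 FPKM in co-culture, a log2 change of 1.09 ± 0.27 with an adjusted p of 0.0401 by limma. Asns, which makes asparagine, measured 66.2, 89.0 and 68.0 FPKM in control and 118, 107 and 278 FPKM in co-culture. The groups did not overlap, but the spread in co-culture was wide and the log2 change of 1.04 ± 0.34 had an adjusted p of 0.0804. Psat1, the aminotransferase of serine synthesis, went from 49.6, 65.6 and 48.8 FPKM to 111, 79.2 and 250.6 FPKM, again without overlap (log2 change 1.26 ± 0.38, adjusted p = 0.0638). Phgdh and the folate enzyme Mthfd2 overlapped between the groups. Phgdh measured 48.2, 71.9 and 62.5 FPKM in control and 78.8, 58.3 and 210 FPKM in co-culture, and Mthfd2 47.0, 71.4 and 48.1 FPKM against 79.0, 52.3 and 173 FPKM. For both, replicate 2 of co-culture lay among the controls, and neither passed the test (adjusted p = 0.286 and 0.256 by limma).

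Of the other 7 enzymes, Pycr1, the last step of proline synthesis, rose. It measured 12.1, 19.4 and 13.6 FPKM in control and 29.8, 21.6 and 37.99 FPKM in co-culture, a log2 change of 0.96 ± 0.24 with an adjusted p of 0.0399. Aldh18a1, the enzyme before it in that pathway, had a log2 change of 0.63 and Pck2, mitochondrial phosphoenolpyruvate carboxykinase, of 0.71, and neither passed. The alanine transaminase Gpt2 had a log2 change of -0.29 and Cbs of -0.03.

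The transporters did not move together. Slc1a5, which imports glutamine in exchange for other neutral amino acids, measured 442, 362 and 430 FPKM in control and 209, 246 and 252 FPKM in co-culture. It fell, with a log2 change of -0.80 ± 0.12 and an adjusted p of 0.00932 by limma, the smallest of the 39. Slc7a5, the light chain of the leucine exchanger, had a log2 change of 1.22 ± 0.47 and the arginine transporter Slc7a1 of 0.94 ± 0.34, with adjusted p of 0.119 and 0.104. Slc7a11 measured 1.04, 0.934 and 0.571 FPKM in control and 1.70, 0.512 and 8.78 FPKM in co-culture, so its mean rested on replicate 3. The glutamine transporter Slc38a2 had a log2 change of -0.16.

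Of the stress effectors, Ddit4, an inhibitor of the growth kinase complex mTORC1, rose from 79.2, 58.7 and 38.04 FPKM to 121, 105 and 118 FPKM (log2 change 1.02 ± 0.24, adjusted p = 0.0323). Unlike most members it did not peak in replicate 3, which lay between the other co-culture libraries. Chac1, which breaks down glutathione, measured 4.15, 7.36 and 2.69 FPKM in control and 7.39, 5.44 and 32.7 FPKM in co-culture, and Trib3 29.9, 44.6 and 24.3 FPKM in control, so for both genes the groups overlapped. Their log2 changes of 1.25 ± 0.63 and 1.01 ± 0.51 had an adjusted p of 0.216 each. Sesn2, a leucine sensor upstream of mTORC1, measured 23.5, 27.8 and 22.6 FPKM in control and 26.6, 19.6 and 40.6 FPKM in co-culture (log2 change 0.17 ± 0.24). Ppp1r15a, the phosphatase subunit that reverses eIF2α phosphorylation, had a log2 change of -0.14.

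Among the secreted and surface proteins Stc2, the glycoprotein stanniocalcin, rose from 2.21, 1.94 and 3.37 FPKM to 8.91, 4.49 and 14.5 FPKM, the largest log2 change of the 39 at 1.60 ± 0.39 (adjusted p = 0.0378). Gdf15, a stress-induced cytokine, measured 52.7, 45.7 and 37.7 FPKM in control and 33.7, 29.1 and 66.4 FPKM in co-culture, with overlap and a log2 change of -0.16.

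**Figure D2:**
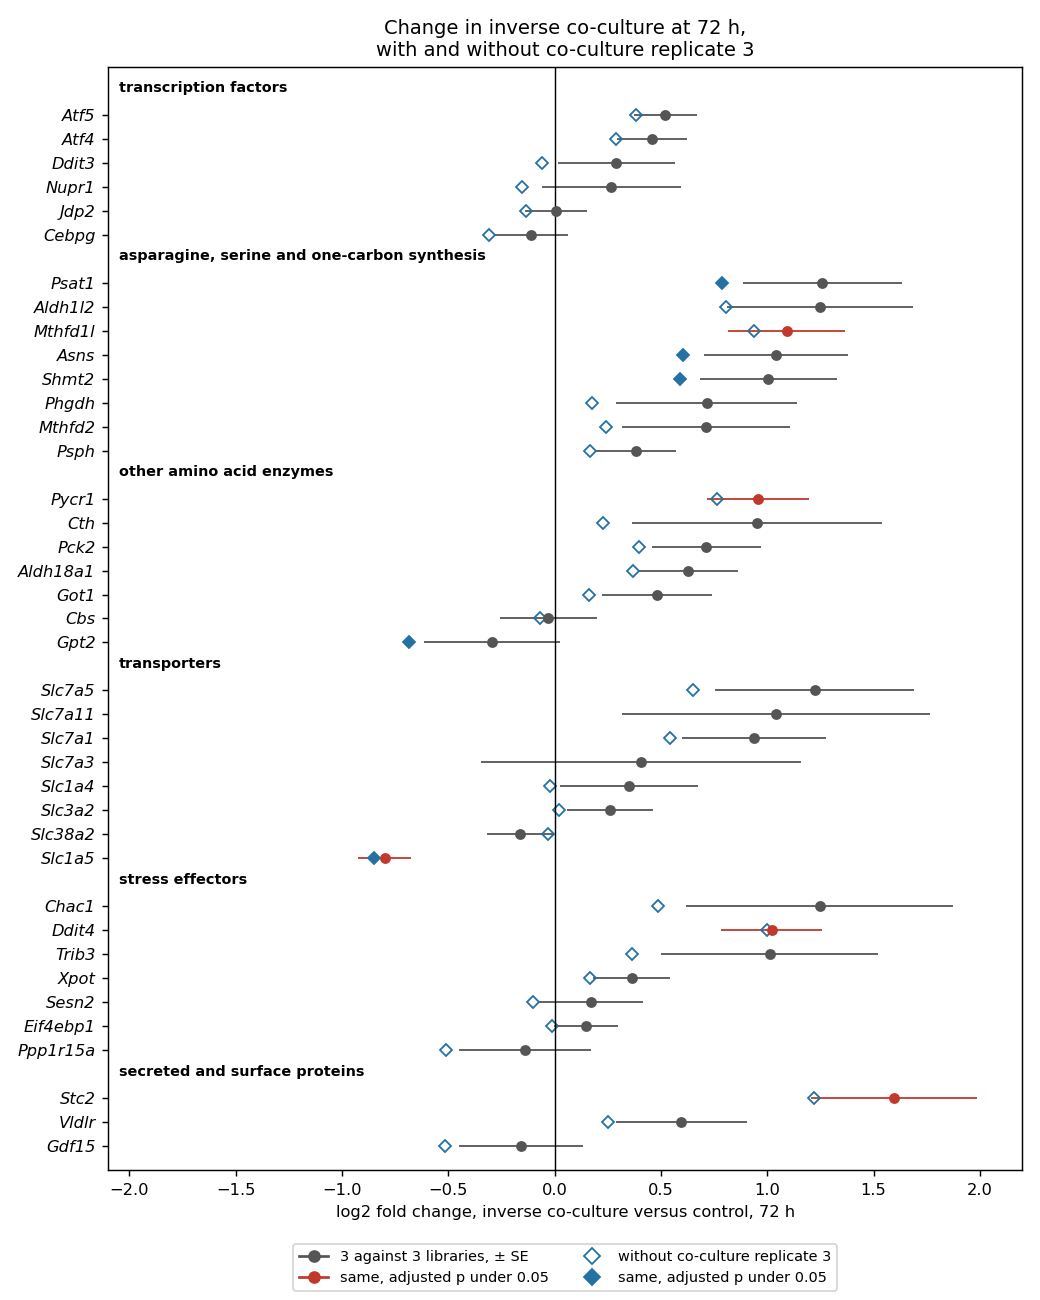
Log2 fold change of the 39 genes in inverse co-culture against control at 72 h, grouped by role. Circles are the change over 3 against 3 libraries with its SE as bars, diamonds the change without replicate 3 of co-culture, and filled colours mark an adjusted p under 0.05 (limma). Most diamonds lie left of their circles, and Slc7a11 and Slc7a3 have none because they were not tested without that library.

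Without replicate 3 of inverse co-culture, 37 of the 39 were tested, 3 rose and 2 fell, and the median log2 change was 0.23 with 24 above 0. Apart from Slc1a5 the called genes were others. Asns (log2 change 0.60 ± 0.14, adjusted p = 0.0365), Psat1 (0.79 ± 0.18, adjusted p = 0.0340) and Shmt2 (0.59 ± 0.13, adjusted p = 0.0307 by limma), the mitochondrial enzyme that splits serine into glycine and a folate-bound carbon, rose, while Gpt2 fell (-0.68 ± 0.17, adjusted p = 0.0439) and Slc1a5 remained called. Ddit4, Stc2, Pycr1 and Mthfd1l kept log2 changes of 1.00, 1.22, 0.76 and 0.94 with an adjusted p from 0.0514 to 0.0722. The background was then 3.1% rising and 9.62% falling. The other libraries mattered as well. The number called was 8 without co-culture replicate 2 (12.7% of all genes) and 1 without co-culture replicate 1 (3.91%). It was 2 without control replicate 1 (4.05% of all genes), 3 without control replicate 2 (7.19%) and 0 without control replicate 3 (2.9%). Slc1a5 was called in each of these except the last, and Stc2 in 1 of the 6. When libraries were scaled by the median of gene ratios, the median of all genes moved from -0.16 to -0.01, and 6 members rose, Atf4 and Atf5 besides the 4, with 1 falling. The background became 5.71% rising and 5.25% falling.

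Markers of other cells moved in the same comparison. All 6 adipocyte markers fell, their summed level being 1663 to 2495 FPKM in control and 404 to 938 FPKM in co-culture, and 4 of the 5 macrophage markers tested fell, from sums of 110 to 205 FPKM to 46.2 to 74.5 FPKM. The part of either in the changes of the members was not tested. Epithelial sums were 2.50 to 6.71 FPKM in control and 4.77, 7.18 and 11.1 FPKM in co-culture, the last in replicate 3. Of the 2 epithelial markers tested 1 rose, while Epcam and Cldn4 reached at most 0.123 and 0.0900 FPKM in any library, and the part of KPC cells was not tested.

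At 24 h in inverse co-culture the members lay close to the control. Only Gdf15 passed the test, and it fell from 52.3, 55.8 and 53.8 FPKM to 34.5, 28.1 and 33.9 FPKM, a log2 change of -0.74 ± 0.11 with an adjusted p of 0.0165 by limma. Of all genes tested 2.47% were called, 1.08% rising and 1.39% falling, so 1 of 39 is near the background. The median log2 change of the members was -0.10, with 14 above 0. In 4 members, Ddit4, Pycr1, Slc38a2 and Stc2, every co-culture library exceeded every control library, and in 6 every one lay below, against 7.38% and 13.8% of genes. Pycr1 measured 26.8, 25.4 and 24.9 FPKM in control and 30.1, 30.5 and 40.6 FPKM in co-culture (log2 change 0.37 ± 0.14, adjusted p = 0.240), and Ddit4 46.4, 56.0 and 37.0 FPKM against 69.6, 56.0 and 90.6 FPKM (0.62 ± 0.20, adjusted p = 0.169). Asns (-0.18 ± 0.11) and Mthfd2 (-0.33 ± 0.13) had the opposite sign to their 72 h values, neither passing the test. The call of Gdf15 was lost without co-culture replicate 2 and without any 1 of the 3 control libraries. That co-culture library had the lowest Gdf15 value (28.1 FPKM) and the highest epithelial marker sum (45.9 FPKM), and the part of KPC cells was not tested.

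**Figure D3:**
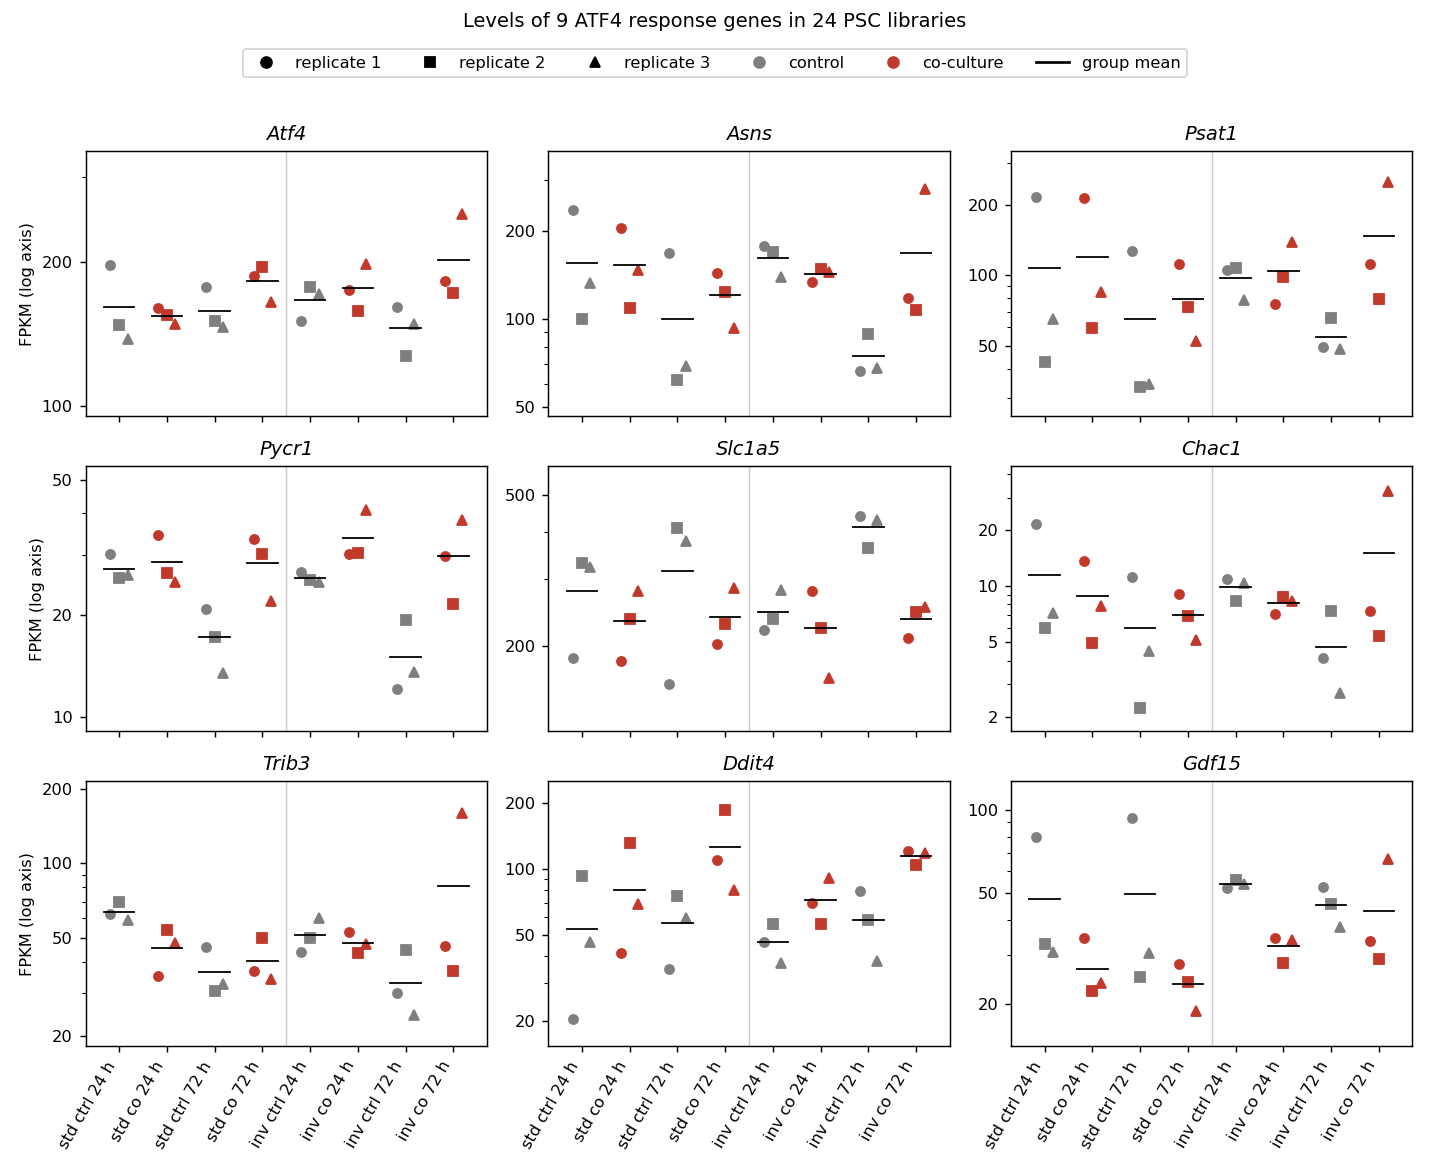
FPKM of 9 of the genes in 24 libraries, on a log axis. Grey symbols are control and red symbols co-culture libraries, the shape gives the replicate and the bar the group mean (n = 3). In inverse co-culture at 72 h replicate 3 lies far above the others for Asns, Psat1, Chac1 and Trib3 but not for Ddit4 and Slc1a5, and standard replicate 1 lies apart in most panels.

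In standard co-culture no member passed the test at either time, and neither did any gene (0% of those tested). The study, which tested with DESeq2 and not with limma on FPKM, reported differentially expressed genes there at both times. The lack of calls here therefore does not show that no gene changed. At an unadjusted p under 0.05, limma gave 1 member at 24 h and 2 at 72 h, against 2.89% and 6.22% of all genes. Without control replicate 1 the count at 72 h became 18 of 38, against 15.7% of all genes, with 0 called. Libraries with the same number deviated together in this model, so the fit with the replicate number as a block was used beside it. With the block 1 member was called at 24 h, Ddit4, against 1.22% of all genes, and 0 at 72 h, with 9 and 4 members at an unadjusted p under 0.05 against 15% and 10.8% of all genes, so the count at 72 h lay near the background. Ddit4 rose from 20.6, 92.9 and 46.4 FPKM in control replicates 1, 2 and 3 to 41.2, 131 and 69.2 FPKM, a log2 change of 0.68 ± 0.11 with an adjusted p of 0.0490 by limma with the block. The groups overlapped, but each co-culture library lay above the control of the same number. At 72 h it measured 34.8, 75.3 and 59.6 FPKM against 109, 187 and 80.0 FPKM (log2 change 1.12 ± 0.25, adjusted p = 0.320 with the block). Gdf15 was lower in each pair, at 79.8, 32.9 and 30.7 FPKM in control and 34.5, 22.2 and 23.7 FPKM in co-culture at 24 h, without passing the test (log2 change -0.71 ± 0.16, adjusted p = 0.107 by limma with the block). The median log2 change of the 39 was -0.08 at 24 h and 0.13 at 72 h, and its sign depended on single libraries. With 1 library left out it ran from -0.20 to 0.11 at 24 h, being above 0 without control replicate 1 or co-culture replicate 2. At 72 h it ran from -0.03 to 0.34, being below 0 without control replicate 2 or 3. By pairs at 72 h, 11 members were higher in replicate 1, 31 in replicate 2 and 24 in replicate 3.

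Of the synthesis genes in the standard model none passed the test. Pycr1 measured 20.9, 17.2 and 13.5 FPKM in control and 33.5, 30.2 and 21.9 FPKM in co-culture at 72 h. It was higher in each pair and the groups did not overlap, with a log2 change of 0.71 ± 0.12 and an adjusted p of 0.217 by limma with the block. Asns measured 236, 99.6 and 132 FPKM in control and 205, 109 and 147 FPKM in co-culture at 24 h, and 168, 61.9 and 68.8 FPKM against 144, 124 and 93.2 FPKM at 72 h. At 72 h replicate 1 was lower and replicates 2 and 3 were higher in co-culture. Atf4 lay between 138 and 197 FPKM in all 12 standard libraries. Trib3 measured 62.5, 70.1 and 59.0 FPKM in control and 35.1, 53.5 and 47.7 FPKM in co-culture at 24 h, lower in each pair and without overlap, with an adjusted p of 0.108 by limma with the block. In the standard model replicate 2 carried the most macrophage marker signal (315 to 1046 FPKM in sum) and replicate 1 the least adipocyte marker signal (221 to 563 FPKM), and their part was not tested.

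The culture time, during which the medium was not replaced, gave the largest count. In inverse controls 17 members fell and 2 rose between 24 h and 72 h, while 9.05% of all genes tested fell and 10.2% rose, 19.2% in all. The median log2 change was -0.53 against 0.04 over all genes. In 19 members all 72 h libraries lay below all 24 h libraries, against 16.9% of genes, and in 3 all lay above, against 22.8%. This comparison shares its 72 h control libraries with the co-culture comparison at 72 h, so a low control enters both.

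Enzymes of asparagine, serine and mitochondrial folate metabolism fell in 7 of 8 cases, with a median log2 change of -0.97. Mthfd2 fell from 132, 138 and 110 FPKM to 47.0, 71.4 and 48.1 FPKM, a log2 change of -1.20 ± 0.17 (adjusted p = 0.00291 by limma). Asns fell from 177, 169 and 140 FPKM to the 72 h values given above (-1.12 ± 0.14, adjusted p = 0.00232), and Phgdh from 132, 146 and 110 FPKM (-1.09 ± 0.16, adjusted p = 0.00338). The libraries at both times did not overlap for any of these genes. Psat1 fell by 0.82 and Mthfd1l by 1.10 on the log2 scale, and Aldh1l2 was the member of this group that did not pass (-0.68 ± 0.29, adjusted p = 0.133). Pck2, Pycr1 and Aldh18a1 fell among the other enzymes, by 0.65, 0.78 and 0.63 on the log2 scale.

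Of the transporters Slc7a5, Slc7a1 and Slc1a4 fell, by 0.80, 0.68 and 0.59 on the log2 scale, whereas Slc1a5 and Slc38a2 rose by 0.74 ± 0.12 and 0.52 ± 0.11, so both glutamine importers went against the synthesis genes. Slc1a5 measured 221, 236 and 281 FPKM at 24 h and 442, 362 and 430 FPKM at 72 h, and Slc38a2 54.2, 52.0 and 52.1 FPKM against 87.0, 77.7 and 65.0 FPKM. Chac1 fell from 10.9, 8.38 and 10.4 FPKM to 4.15, 7.36 and 2.69 FPKM (log2 change -1.08 ± 0.30, adjusted p = 0.0352) and Eif4ebp1, a repressor of cap-dependent translation, by 0.53. Trib3 came close (-0.67 ± 0.21, adjusted p = 0.0563 by limma). Atf5 and Jdp2 fell by 0.54 and 0.60, while Atf4 did not pass the test, at 151, 177 and 172 FPKM at 24 h against 161, 127 and 148 FPKM at 72 h (-0.20 ± 0.11). Ddit3, Sesn2 and Slc7a11 had log2 changes of 0.08, -0.03 and -0.57 and did not pass, and Slc7a11 lay at 1.80, 1.62 and 1.08 FPKM at 24 h.

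Between 13 and 22 members were called when any 1 of the 6 libraries was left out, against 9.64% to 18.5% of all genes. None was called when the spread was taken from all 24 libraries, in which case 225 genes were called instead of 2516. Adipocyte marker sums in inverse controls rose from 612 to 1042 FPKM at 24 h to 1663 to 2495 FPKM at 72 h, with 6 of 6 markers called, and 4 of 5 macrophage markers rose. Their part in these falls was not tested.

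In the other cultures the same time span gave no call. In standard controls 0 members were called of 0% of all genes, but 34 of 39 had a negative log2 change, with a median of -0.36. The 3 pairs had medians of -0.22, -0.39 and -0.53. With the replicate block 0 were called as well, and 20 members against 8.91% of all genes had an unadjusted p under 0.05, compared with 2 without the block (0.98% of all genes). Without control replicate 1 at 72 h the unblocked count was 12, against 2.73% of all genes, and the median -0.61. The median was -0.18 without control replicate 1 at 24 h and -0.21 without control replicate 2 at 72 h. Phgdh in standard controls went from 320, 72.1 and 96.7 FPKM to 176, 43.0 and 58.8 FPKM, lower in each pair, with a log2 change of -0.77 ± 0.10 and an adjusted p of 0.214 by limma with the block. In standard co-culture the median was -0.17 and 0 were called (0% of all genes), with 0 members at an unadjusted p under 0.05, or 8 with the block (12.5% of all genes). With 1 library left out that median ran from -0.30 without replicate 2 at 24 h to -0.07 without replicate 3 at 72 h, and it was -0.08 without replicate 1 at 24 h. In inverse co-culture the median was 0.17 with 31 above 0, and 0 members were called against 0.00784% of all genes. Ddit4 had the smallest p of these, with 69.6, 56.0 and 90.6 FPKM at 24 h and 121, 105 and 118 FPKM at 72 h (log2 change 0.69 ± 0.17, adjusted p = 0.162), and it was the 1 member with an unadjusted p under 0.05, against 15.3% of all genes. Without replicate 3 at 72 h the median in inverse co-culture was -0.16 with 9 above 0, so its sign rested on that library, and without replicate 2 at 72 h it was 0.42.

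**Figure D4:**
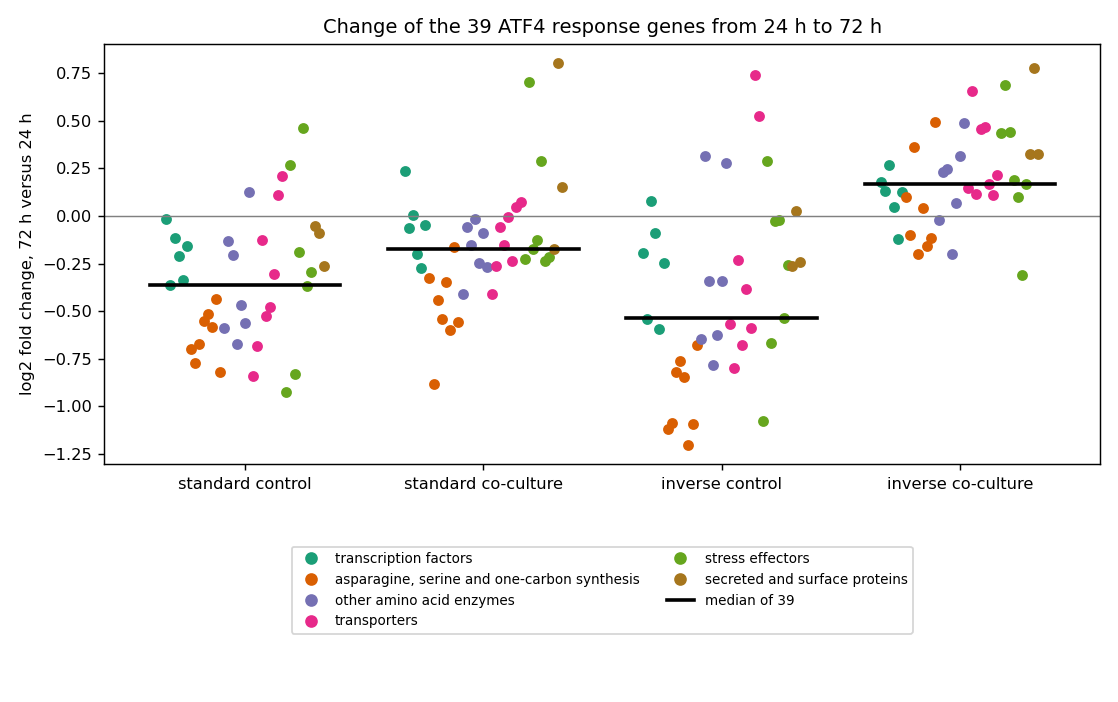
Log2 fold change from 24 h to 72 h of the 39 genes in the 4 culture types. Each point is 1 gene coloured by role and the bar is the median of the 39, at -0.36, -0.17, -0.53 and 0.17 from left to right. The enzymes of asparagine, serine and folate metabolism lie, with Chac1, among the lowest in inverse controls, and 2 transporters, Slc1a5 and Slc38a2, lie highest there.

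Whether the co-culture effect differed between times or models was tested on the difference of effects. In the inverse model, 0 members were called for a difference between the effects at 72 h and 24 h (0% of all genes). At an unadjusted p under 0.05 by limma there were 12 of 39, against 10.7% of genes. That count ran from 5 without co-culture replicate 1 at 24 h to 27 without co-culture replicate 2 at 72 h (7.68% and 15% of genes). The median difference was 0.59 on the log2 scale with 36 of 39 above 0, and 0.31 with 28 above 0 without co-culture replicate 3 at 72 h. Atf5 had the smallest adjusted p at 0.255 (difference 0.67 ± 0.19), and Asns had a difference of 1.22 ± 0.39 (adjusted p = 0.331 by limma). In the standard model 0 members were called (0% of genes). There 2 members had an unadjusted p under 0.05 by limma, against 141 of 13694 genes. That fit left the pairing of standard libraries out. With the replicate block there were 2 as well, against 2.77% of genes, and 0 called. Between the models the difference of effects gave 0 called members at 24 h and 0 at 72 h (0% of genes each). At either time 0 members had an unadjusted p under 0.05, against 182 of 14452 genes at 24 h and 501 at 72 h. The pairing of standard libraries was left out of these fits too. With the replicate block 0 were called at either time. That block holds the same shift per number for both models, so it does not pair the standard libraries alone. The median differences were 0.01 at 24 h and 0.40 at 72 h, where 34 of 39 were above 0. The value at 72 h became 0.10 with 25 above 0 without inverse co-culture replicate 3, 0.13 without standard control replicate 1, 0.67 without inverse co-culture replicate 2 and 0.61 without standard control replicate 2. The effect of inverse co-culture on these genes was therefore not shown to differ from that of standard co-culture.

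Genes around the ATF4 pathway were counted in inverse co-culture against control at 72 h and in inverse controls over time, from lists chosen with earlier results of these data known. Their counts are to be read against all genes tested, of which 3.27% rose and 9.57% fell in the former comparison and 10.2% rose and 9.05% fell in the latter. The 20 cytosolic aminoacyl-tRNA synthetases, which charge tRNA with amino acids, include ATF4 targets. At 72 h 0 of 20 were called in co-culture, with 18 above 0 and a median log2 change of 0.33, and over time in inverse controls 10 of 20 fell and 0 rose, with a median of -0.37. Tars, for threonine, measured 68.3 ± 13.9 FPKM in co-culture and 50.2 ± 6.54 in control at 72 h (mean ± SD, n = 3, adjusted p = 0.118 by limma). Of 10 tested kinases, phosphatases and partners of eIF2α, 1 was called in co-culture, Impact, an inhibitor of the kinase GCN2, which fell from 30.7 ± 2.98 to 18.5 ± 3.05 FPKM (adjusted p = 0.0202), and 0 over time. Of 11 tested bZIP genes, Cebpa and Maf fell in co-culture, and Cebpa rose over time in the controls. Cebpa, a bZIP factor of fat cell differentiation, fell from 244 ± 43.4 to 56.3 ± 16.1 FPKM (log2 change -2.13 ± 0.23, adjusted p = 0.00407), the direction of the adipocyte markers.

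Lists of other stress pathways were counted in the same way. Of 17 chaperones of the endoplasmic reticulum 0 were called in co-culture, with a median log2 change of -0.06, and 1, Manf, fell over time. Of 10 mitochondrial chaperones and proteases 0 were called in co-culture, and Hspe1 and Hspa9 fell over time. Hspa9, the mitochondrial Hsp70, measured 243, 247 and 222 FPKM in control and 279, 259 and 526 FPKM in co-culture at 72 h, again highest in replicate 3 (log2 change 0.51 ± 0.25, adjusted p = 0.207 by limma). Of 10 NRF2 targets Txnrd1, thioredoxin reductase, rose and Gsr, glutathione reductase, fell in co-culture. In the cytosolic folate and methionine cycle 1 of 12 rose in co-culture, Tyms, the thymidylate synthase of DNA synthesis, from 6.58 ± 0.78 to 13.8 ± 4.54 FPKM (adjusted p = 0.0327 by limma). Among 14 tested amino acid transporters outside the list 5 fell and 0 rose in co-culture. Slc6a6, the taurine transporter, fell from 229 ± 10.97 to 160 ± 1.68 FPKM (adjusted p = 0.0122), and Slc7a2, an arginine transporter, from 10.9 ± 2.26 to 3.64 ± 1.45 FPKM (adjusted p = 0.0186), while Slc7a2 and Slc7a8 rose over time in the controls.

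The HIF1 targets, genes induced at low oxygen, had the most calls in co-culture of the lists counted. At 72 h 9 of 12 rose and 0 fell, with a median log2 change of 0.88. P4ha1, a collagen prolyl hydroxylase subunit, rose from 100 ± 4.06 to 213 ± 19.9 FPKM (adjusted p = 0.00360 by limma), the glycolytic enzyme Pgk1 from 157 ± 14.8 to 385 ± 66.3 FPKM, and Ndufa4l2, a mitochondrial protein, from 7.05 ± 3.51 to 104 ± 47.8 FPKM. Ddit4 and Stc2, called members of the ATF4 list, are known to be induced at low oxygen as well, and these data do not tell apart which factor acted on them. Over time in the controls, 4 of the 12 fell and 0 rose.

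The members with the element TGATGNAA in their promoter window lay, in inverse co-culture at 72 h, above 0 in 11 of 11 cases with a median log2 change of 0.71, of which Pycr1 passed the test. The 22 members with a promoter entry but without the element were above 0 in 16 cases, with a median of 0.42 and 3 called. Over time in inverse controls the 11 had a median of -0.60 with 6 falling and 0 rising, and the 22 had -0.24 with 9 falling and 1 rising. These values describe the list, and no difference between the sets was tested.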

How the data were processed

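RNA of PSC was sequenced by a service company for the authors, and reads were aligned with HISAT2 2.0.5 to GRCm38.p6 and counted per gene with featureCounts 1.5.0-p3 at default settings, which disregard strand (versions per the submitters' processing notes). The deposited values are FPKM, computed for the authors per library with no further scaling. The annotation release is not given in the sources used here, and symbols and positions came from GENCODE M21. Fragment totals were recovered from low FPKM values as multiples of 1 fragment, and 64.8% to 71.3% of these were whole within 0.02. Of 2 rows for Ddit3, the row with reads was used, the other being 0 throughout.

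Members and gene lists were chosen with earlier results of these data known. Values per library are given for Atf4, Asns, Psat1, Phgdh, Mthfd2, Chac1, Ddit3, Trib3, Sesn2 and Slc7a11 whatever they did, and for every other member called in a comparison of co-culture with control. For the gene lists, examples are among the 4 genes with the smallest adjusted p in inverse co-culture at 72 h. Shmt2, Gpt2 and others were named after their values were seen.

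limma 3.58.1 in R 4.3.3 was fitted with an intensity trend to log2(FPKM + 0.5), two-sided, over all genes that exceeded an FPKM of 1 in 3 or more of the fitted libraries, with Benjamini-Hochberg adjustment over these. Fold changes are on this scale and understate the change of low genes. Each comparison used the 6 libraries concerned, differences of effects 12 or 24. The step was run on simulated data with noise drawn independently for each gene and library. Those data held no shifts shared by many genes of a library, so the run does not cover the libraries that stood apart. An exact permutation test of 3 against 3 libraries cannot go below 0.1 and was not used. The labels do not say that libraries came from separate isolations, so p-values measure the spread between these libraries.

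Deviations from the group means of same-numbered libraries correlated across genes at 0.38 to 0.82 in all 12 standard pairs (Pearson), which were taken as paired, and at -0.17 to 0.21 in the inverse model, where the numbers were not taken to pair libraries. Alternatives were pseudocounts of 1 and 0.1, scaling by the median of gene ratios, no filter, a filter at a mean FPKM of 5, the replicate block, 1 model over 24 libraries, and each library left out. Standard replicates 2 and 3 alone were added after seeing the data. Promoters came from RefSeq. Python 3.11.15 with pandas 2.3.3, numpy 2.4.6 and matplotlib 3.10.9 made tables and plots.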

Additional observations from a re-analysis of the deposited data

How the results depend on the processing

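In inverse co-culture at 72 h, where 5 members were called, 1 was called with no filter, 3 with the replicate block and 3 with 1 model over 24 libraries, and 0 to 8 with a library left out. The 1 call at 24 h became 0 with no filter, with the block and with 1 model, and 0 to 1 with a library left out. In inverse controls over time the 19 calls became 0 with 1 model over 24 libraries and 13 to 22 with a library left out. In standard co-culture at 24 h, the paired fit (replicate block) called 1 in place of 0. The other alternatives kept these counts within 1.5 times, and the counts of 0 in the other comparisons stayed at 0, also with standard replicates 2 and 3 alone. In the inverse model the block gave 18 in place of 19 over time and changed no other count than those named, but its numbers were not taken to pair libraries. The cause of these changes was not tested, except that leaving out a library or the filter changes the number of libraries or genes tested. Over the 16 genes given per library and 4 co-culture comparisons, 758 recalculated log2 changes kept their call or, where not called, moved by at most their SE, 34 lost a call, 6 gained one and 24 moved further, and 0 calls changed sign. Slc7a3, Slc7a11 and Cbs lay below the FPKM of 1 used in the filter in some libraries, with lowest values of 0.337, 0.41 and 0.651.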
